A study of Mus musculus with 4 samples.

Results

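The heat shock chaperones examined here are 10 listed genes: Hspa1a and Hspa1b (inducible HSP70), Hsph1, Dnajb1 and Dnaja1 (cytosolic co-chaperones of HSP70), Hspa8 (constitutive HSC70), Hsp90aa1 (inducible HSP90 alpha), Hspb1 (a small heat shock protein), and Hspe1 and Hspd1 (the mitochondrial chaperonin pair). They were taken by symbol from the 31053 genes counted in single CD45+ (white blood) cells of mouse Peyer's patches, which are lymphoid follicles in the wall of the small intestine. All 10 were found. They were followed in clusters 0 to 6 of the authors' cell table, and in the barcodes outside that table with at least 1 UMI (unique molecular identifier, a counted RNA molecule) of Cd3d, Cd3e or Cd3g, called Cd3 barcodes here.

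The mice were female wild-type animals from Taconic that either lacked segmented filamentous bacteria (SFB-negative) or carried them (SFB-positive). SFB are commensals that hold on to the lining of the ileum. Either group had 2 libraries, numbered 1 and 2, and the labels name pools of 5 mice. The sources used here do not make clear whether both libraries of a group came from separate pools, so p-values measure at most the spread between libraries. Age is not given in the sources used here. Tissue of both groups went through an EDTA step of 10 min and a digestion of 30 min at 37 °C before sorting on CD45.

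Chaperones bind unfolded or partly folded proteins and keep them from aggregating. When unfolded protein accumulates, the transcription factor HSF1 forms trimers, binds repeats of the sequence NGAAN (heat shock elements) and switches on genes such as Hspa1a, while Hspa8 is made at all times. The same genes are known to respond in freshly isolated lymphocytes to activation and to warm tissue digestion.

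SFB-negative libraries 1 and 2 held 7198366 and 47273320 UMIs, and SFB-positive libraries 1 and 2 held 6979187 and 83600989. The table took 4050 and 7731 cells of the SFB-negative and 3408 and 7380 of the SFB-positive libraries, and the Cd3 barcodes numbered 302, 1404, 329 and 1400. The replicate number marks a technical difference in the file headers: both number 1 libraries carry Cell Ranger 6.0.0 and 15 antibody tags, and both number 2 libraries Cell Ranger 7.0.0. Each level below is in CPM, the gene's UMIs scaled to the same total of all gene UMIs in each class and library, with the SFB-negative libraries 1 and 2 first. Libraries of the same number shared 30 and 40 barcode sequences, and libraries of different numbers at most 1.

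T-cell markers summed to 3553 to 9892 CPM in the Cd3 barcodes, with all 10 detected in every library, and to 48.1 to 69.3 CPM in the table. B-cell markers summed to 5775 to 7629 CPM in the table and to 597 to 1233 CPM in the Cd3 barcodes, of which 27.4% to 42.0% held a UMI of a B-cell gene. Germinal-centre markers reached 1904 to 2889 CPM in cluster 3 and 50.1 to 230.0 CPM in clusters 0, 1, 2 and 4, so cluster 3 is called germinal-centre-like. Cluster 6, with 6 to 68 cells a library, was plasma-like, with plasma-cell markers at 24421 to 66334 CPM. Memory B-cell markers were highest in cluster 4 in every library (443 to 997 CPM), and naive follicular markers were similar in clusters 0, 1 and 2. Cluster 5 held 1 and 0 cells of the number 1 libraries and was not compared.

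SFB-positive was tested against SFB-negative on the summed counts of each class in 2 ways. The edgeR quasi-likelihood test without the replicate number, set as the main one, called no gene of any kind at an adjusted p under 0.05, with 6 to 22 genes per class at an unadjusted p under 0.05. The same test with the replicate number as a block called genes in every class. In the text, "passed" refers to that second test and n is 2 libraries per group. Its spread is taken largely from all genes together, so very small p-values do not measure how 1 gene varied between libraries. Values within each number are therefore given beside it. TMM scaling (edgeR's trimmed mean of M-values) lowered the number 2 differences by 0.13 to 0.36 on the log2 scale against the CPM printed here, and moved those of number 1 by -0.01 to 0.09.

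Before the values, the stretches that hold heat shock elements are shown, because HSF1 acts on such genes through them. RefSeq promoters (GRCm38.p6) were found for 8 of the 10 members, all but Hspa8 and Hsp90aa1, and the 250 bases before each start were searched. The 3-unit element (GAANNTTCNNGAA or TTCNNGAANNTTC, which read as each other on the opposite strand) lay in Hspe1 and Hspd1 only, against 0.514% of 27025 genes with a promoter entry (0.466% of 32851 promoters). These genes lie head to head, and both windows are the same 30 bases, chr1:55088053-55088082, read on opposite strands. The capitals mark 2 overlapping 3-unit elements, which begin 89 bases before the Hspe1 start and 144 before that of Hspd1. The stretch is also part of an exon of a longer Hspd1 transcript.
Hspe1: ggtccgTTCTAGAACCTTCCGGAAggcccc
Hspd1: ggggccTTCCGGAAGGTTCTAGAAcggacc

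The shorter 2-unit element (GAANNTTC or TTCNNGAA, each its own reverse complement, and contained in the 3-unit form) lay in a promoter of 7 of the 8 members, and of 14.5% of all genes (12.8% of promoters). Dnajb1 held none in these windows. In the windows below the capitals mark the element. The Hspa1a (chr17:34972242-34972271, minus strand) and Hspa1b (chr17:34959324-34959353, minus strand) stretches are letter for letter the same, with the element 104 bases before the start. The Hsph1 element (chr5:149636351-149636380, minus strand) begins 33 bases before the start, and that of Dnaja1 (chr4:40722333-40722362, plus strand) 124 bases before. For both genes this is the nearest listed RefSeq start, and the element lies inside the gene span given below. The windows before the other Dnaja1 starts held no element. Hspb1 has 2, at chr5:135887791-135887820 and chr5:135887811-135887840 on the plus strand, 117 and 97 bases before the start. A match is a description of letters, not a bound site.
Hspa1a: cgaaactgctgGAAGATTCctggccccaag
Hspa1b: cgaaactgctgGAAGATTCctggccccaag
Hsph1: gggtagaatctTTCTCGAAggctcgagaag
Dnaja1: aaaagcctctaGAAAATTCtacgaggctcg
Hspb1, distal: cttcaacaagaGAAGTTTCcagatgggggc
Hspb1, proximal: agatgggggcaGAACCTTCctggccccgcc

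Hspa1a and Hspa1b encode the stress-inducible HSP70, an ATP-driven chaperone that holds unfolded protein. They are neighbouring genes of 1 exon each on the minus strand of chromosome 17 (GRCm38), Hspa1a (ENSMUSG00000091971) at 34969190 to 34972156 and Hspa1b (ENSMUSG00000090877) at 34956436 to 34959238. Their coding sequences of 1926 and 1929 bases were 99.4% identical, with 8 mismatches and 3 gap positions, and 247 of the 250 promoter bases were the same. After the coding sequence, where reads from the 3′ end of a transcript fall, 810 and 643 bases were 47.3% identical.

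How the UMIs divided between both copies followed the replicate number, not the SFB group. In Cd3 barcodes Hspa1b took 3.29% (95% exact Clopper-Pearson interval 1.43 to 6.38) of the UMIs of both copies in SFB-negative library 1 and 2.70% (1.58 to 4.29) in SFB-positive library 1. In the number 2 libraries it took 31.5% (29.4 to 33.7) and 28.4% (27.6 to 29.2). The same split stood in cluster 1, with 3.04% and 2.76% in number 1 and 29.8% and 26.3% in number 2. Over clusters 0 to 4 and the Cd3 barcodes the Hspa1b share ran from 1.39% to 6.41% in number 1 libraries and from 26.0% to 34.1% in number 2 libraries, with no overlap. These intervals cover counting error only. Cell Ranger version, antibody tags and depth also change with the number, and their part was not tested. Since reads can be split between the copies, the sum of both is given beside each copy.

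**Figure D1:**
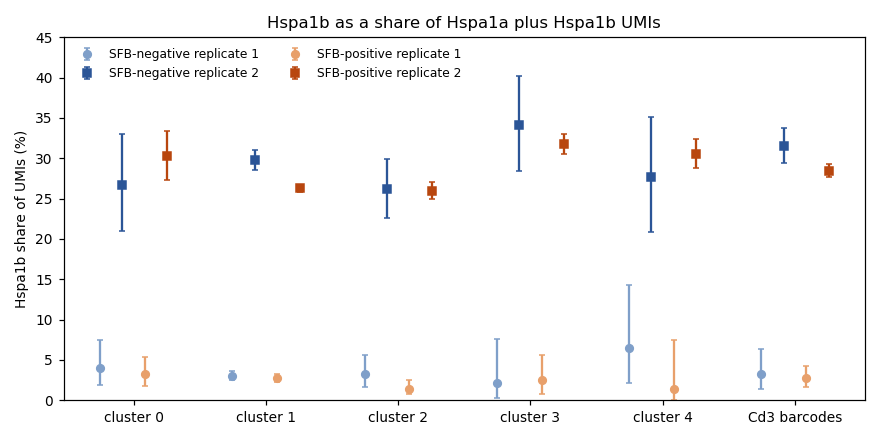
Share of Hspa1b among the UMIs of Hspa1a and Hspa1b (percent, vertical axis) in each class (horizontal axis), 1 symbol per library with its 95% exact Clopper-Pearson interval. The number 1 libraries of both groups lie between 1.39% and 6.41% and the number 2 libraries between 26.0% and 34.1%.

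Over clusters 0 to 4 and the Cd3 barcodes, Hspa1a was highest in cluster 1 in all 4 libraries and lowest in cluster 0 in 3 of 4. Its level in cluster 1 was 2664 and 530.1 CPM in the SFB-negative and 2801 and 2098 CPM in the SFB-positive libraries. In cluster 0 it was 75.6 and 13.3 against 203 and 48.0 CPM. The ratio of cluster 1 to cluster 0 was 13.8 to 43.7 for Hspa1a and 11.7 to 46.5 for Hspa1b. Cluster 1 held 84.7% and 81.1% of the table's Hspa1a UMIs in SFB-negative and 73.7% and 73.4% in SFB-positive libraries. The authors' clusters were made from these cells, possibly with these genes, so the levels by cluster are a description and carry no test.

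Cd3 barcodes came second for Hspa1a in 3 of 4 libraries, at 5.54 to 16.6 times the level of cluster 0. Cluster 1 in turn was 2.40 to 5.86 times above the Cd3 barcodes. Germinal-centre-like cluster 3 held Hspa1a at 133 and 29.8 against 209 and 263 CPM, and cluster 4 at 229.6 and 48.5 against 167 and 295 CPM. In these clusters the libraries of 1 group differed among themselves by as much as the clusters did, so their order is not settled. Plasma-like cluster 6 held 0 and 87.7 against 142 and 667 CPM, on few cells.

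**Figure D2:**
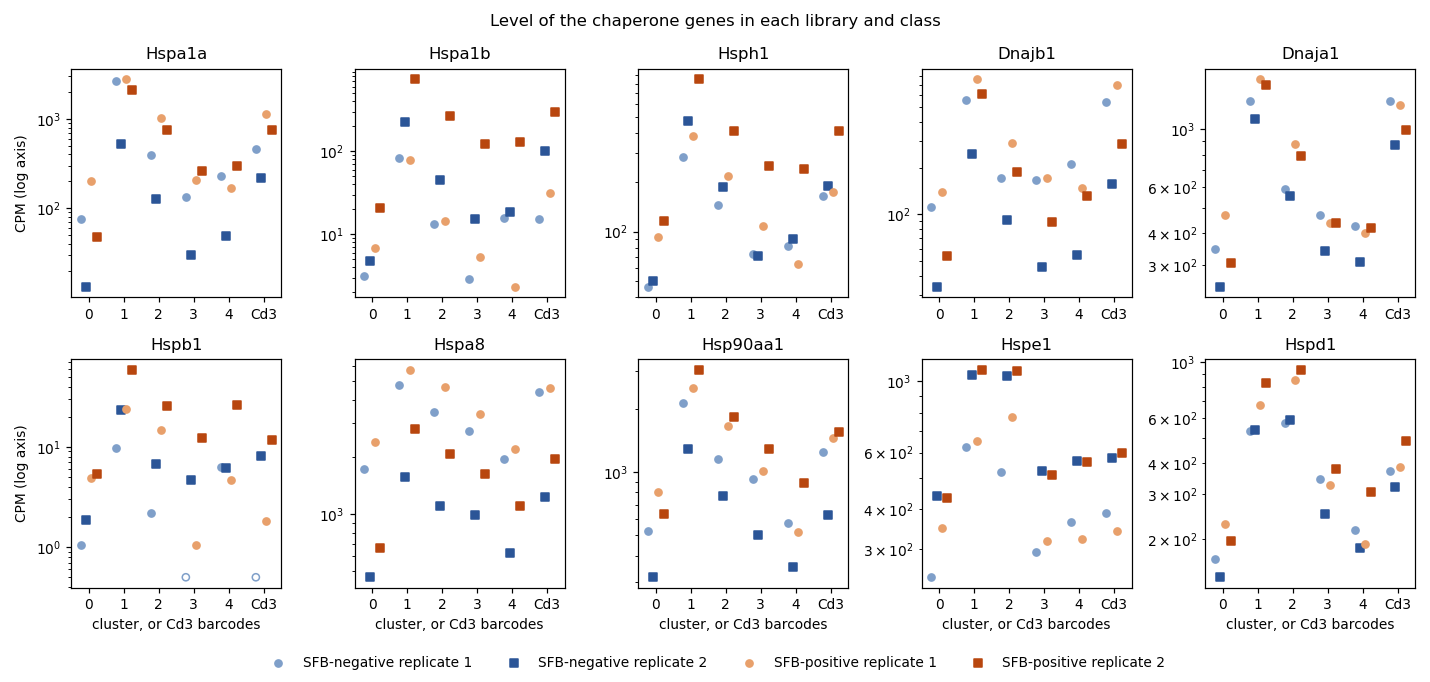
Level of each of the 10 chaperone genes (CPM, log axis) in clusters 0 to 4 and the Cd3 barcodes, 1 symbol per library. Open symbols at the bottom mark 0 UMIs. Cluster 1 is at the top for Hspa1a, Hspa1b, Hsph1, Dnajb1, Hspb1, Hspa8 and Hsp90aa1 in all 4 libraries, and cluster 2 for Hspd1.

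In Cd3 barcodes Hspa1a stood at 455 and 221 CPM in SFB-negative and at 1122 and 745 CPM in SFB-positive libraries (338 ± 166 and 933 ± 267, SD, n = 2). Both SFB-positive libraries lay above both SFB-negative ones. The difference passed with the block at 2.65-fold (log2 1.41 ± 0.24, SE, edgeR adjusted p = 2.38e-04), with 1.31 within number 1 and 1.5 within number 2. Without the block the adjusted p was 1.00. Hspa1b stood at 15.5 and 102 against 31.1 and 296 CPM, so it was higher within each number (0.99 and 1.28) while the groups overlapped across numbers. It passed with the block (1.24 ± 0.28, edgeR adjusted p = 0.00791) but not with DESeq2 and the block. The sum of both copies was 470.3 and 322 against 1153 and 1040.2 CPM and passed at 2.59-fold (edgeR adjusted p = 5.27e-04).

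Other markers in Cd3 barcodes were higher in the SFB-positive library of each number, while the groups overlapped across numbers. The germinal-centre list, with 8 of 8 genes detected in every library, summed to 94.8 and 304 CPM in SFB-negative and 176 and 566 CPM in SFB-positive libraries. Barcodes with a Cd4 UMI and no Cd8a or Cd8b1 UMI numbered 33 of 302 and 314 of 1404 against 67 of 329 and 576 of 1400. The part of either in the Hspa1a difference of all Cd3 barcodes was not tested.

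The Cd4 and Cd8 sets, narrower groups of Cd3 barcodes, gave the same direction for both copies. In the Cd4 set (a Cd4 UMI and no Cd8a or Cd8b1 UMI) Hspa1a stood at 294 and 166 against 776 and 812 CPM, without overlap. There Hspa1a differed by 1.84 (edgeR adjusted p = 4.43e-04) and Hspa1b by 1.76 (0.0484, on 0 against 3 UMIs in number 1) with the block. In the Cd8 set (a Cd8a or Cd8b1 UMI and no Cd4 UMI) Hspa1a stood at 474 and 240.2 against 1365 and 694 CPM, again without overlap, and the differences were 1.48 (0.00735) and 1.37 (0.0382). B-cell markers summed to 699 and 1233 CPM in SFB-negative and 597 and 1027 CPM in SFB-positive Cd3 barcodes, lower in the SFB-positive library of each number. Without the barcodes holding a B-cell UMI, both copies still passed. In summed counts, more cells expressing a gene and more RNA per cell cannot be told apart.

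Per cell, Hspa1a or Hspa1b was seen in more Cd3 barcodes of the SFB-positive libraries. After each cell was thinned to 1000 UMIs, 17.5% (95% exact interval 13.3 to 22.5) and 15.6% (13.7 to 17.7) of the SFB-negative Cd3 barcodes held a UMI of either copy. In the SFB-positive libraries 34.1% (28.8 to 39.8) and 34.3% (31.8 to 36.9) did. The difference was 17.6 percentage points, 16.6 within number 1 and 18.7 within number 2, with p = 0.333 by an exact permutation test (two-sided), the lowest value that 2 against 2 libraries allow. Unthinned shares were 23.2% and 26.4% against 36.2% and 52.4%, at median depths of 1584 and 3515 against 1471 and 6742 UMIs. Thinning left out 17, 95, 30 and 7 shallower barcodes.

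Cluster 2 showed the widest relative gap of this kind, with 9.15% and 7.05% of SFB-negative and 26.6% and 28.8% of SFB-positive cells. In cluster 1 the shares were 40.0% and 33.0% against 56.2% and 64.9%. Unthinned, they were 10.7% and 18.7% against 34.1% and 44.5% in cluster 2 and 43.3% and 50.5% against 60.0% and 84.6% in cluster 1. Both thinned differences, 19.6 points in cluster 2 and 24.1 in cluster 1, had the same exact permutation p of 0.333. Cluster 0, with the lowest share among clusters 0 to 4 and the Cd3 barcodes in 3 of 4 libraries, had 5.41% and 1.71% against 8.85% and 3.48%, and its groups overlapped. Cluster 3 (12.2% and 2.36% against 11.5% and 18.7%) and cluster 4 (7.32% and 5.61% against 6.67% and 16.5%) differed in number 2 only, with -0.74 and -0.65 points in number 1. No class is known to lack these genes, so the part of these shares that free RNA in the droplets gives is unknown.

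**Figure D3:**
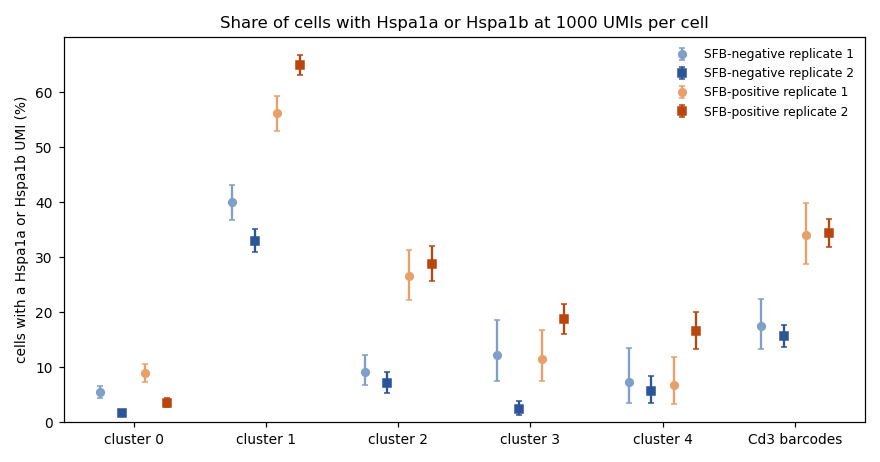
Share of cells with at least 1 UMI of Hspa1a or Hspa1b after thinning each cell to 1000 UMIs (percent, vertical axis) by class, 1 symbol per library with its 95% exact Clopper-Pearson interval. The SFB-positive libraries lie above both SFB-negative ones in clusters 1 and 2 and the Cd3 barcodes.

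Among the table's cells with the block, Hspa1a passed in clusters 0, 2, 3 and 4 and in the table as a whole, and not in cluster 1. In cluster 2 it stood at 394 and 127 against 1014 and 754 CPM, without overlap (log2 1.79 ± 0.34, edgeR adjusted p = 4.98e-05, 1.37 and 2.21 within the numbers). In cluster 0 it differed by 1.48 ± 0.26 (edgeR adjusted p = 4.45e-06), by 1.43 and 1.51 within the numbers, while the groups overlapped across numbers. Hspa1b was at 3.15 and 4.83 against 6.81 and 20.8 CPM there (1.64 ± 0.33, edgeR adjusted p = 1.74e-04, 1.07 and 1.73 within the numbers). These genes differ widely between clusters 0 and 1 and may have entered the clustering. SFB tests inside either cluster, also for Hsph1, can therefore depend on that split. With clusters 0 and 1 as 1 class and the block, Hspa1a differed by 1.32 (edgeR adjusted p = 0.184) and Hspa1b by 1.22 (0.143). Neither passed.

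In other clusters the difference rested mainly or wholly on number 2. In cluster 1 Hspa1a differed by 0.08 within number 1 and 1.78 within number 2 (0.93 ± 0.38 with the block, edgeR adjusted p = 0.477). The sum of both copies in cluster 1 was 2747, 755, 2880.3 and 2845 CPM, so SFB-negative library 2 stood alone below the others. Cluster 3 gave 0.70 and 2.89 for Hspa1a within the numbers, and 0.83 and 2.72 for Hspa1b, which was at 2.93 and 15.4 against 5.28 and 122 CPM. In cluster 4 Hspa1a went opposite ways, -0.41 in number 1 and 2.25 in number 2, although the block test passed (1.10 ± 0.31, edgeR adjusted p = 0.0303). Hspa1b also went opposite ways there, -2.37 on 5 against 1 UMIs in number 1 and 2.43 in number 2 (2.07 ± 0.38, edgeR adjusted p = 1.64e-05). The sum of both copies did not pass in cluster 4 (1.11 ± 0.34, edgeR adjusted p = 0.0958). In cluster 2 Hspa1b differed by 0.15 and 2.18 within the numbers (1.76 ± 0.35, edgeR adjusted p = 1.29e-04). In the whole table Hspa1a differed by 0.35 and 2.05 and Hspa1b by 0.06 and 1.88 within the numbers, and both calls with the block were lost when RLE scaling (edgeR's relative log expression) replaced TMM. With DESeq2 and the block, run in clusters 0 to 4, the table and the Cd3 barcodes, Hspa1a kept its call in clusters 0 and 2 and the Cd3 barcodes, and the other calls on either copy were lost.

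Whether the Hspa1a difference itself differed between classes was tested for 3 pairs. Between clusters 4 and 3 it was smaller in cluster 4 by 0.70 ± 0.27 on the log2 scale (unadjusted p = 0.00832, edgeR adjusted p = 0.941). The Hspa1b difference was smaller in Cd3 barcodes than in cluster 3 by 1.16 ± 0.37 (edgeR adjusted p = 0.595). Between clusters 0 and 3 the Hspa1a values differed by -0.31 with a 95% interval of -2.73 to 2.11. No member was called in any pair, against 0.0622% (clusters 4 and 3), 0.0461% (clusters 0 and 3) and 0.0908% (Cd3 barcodes and cluster 3) of all genes tested.

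Hsph1 (ENSMUSG00000029657, chromosome 5, 149614287 to 149636376, minus strand) encodes HSP105, which recharges HSP70 with ATP. It had the pattern by cluster most like that of HSP70 among the other members, highest in cluster 1 in 4 of 4 libraries, at 287 and 473 against 383 and 855 CPM. In cluster 0 it stood at 46.2 and 50.2 in SFB-negative and 92.4 and 116 CPM in SFB-positive libraries, with both SFB-positive libraries higher. That difference passed with the block (0.94 ± 0.26, edgeR adjusted p = 0.0158, 1.01 and 0.87 within the numbers). In cluster 3 the levels were 73.3 and 71.5 against 109 and 251 CPM, again without overlap (1.17 ± 0.31, edgeR adjusted p = 0.0200, 0.62 and 1.56). Neither call held with DESeq2 and the block. In Cd3 barcodes Hsph1 was at 165 and 189.5 against 176 and 412 CPM and did not pass (0.55 ± 0.24, edgeR adjusted p = 0.386), with 0.10 within number 1 and 0.86 within number 2.

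Dnajb1 (ENSMUSG00000005483, chromosome 8, 83608193 to 83612653, plus strand) encodes HSP40, which hands unfolded proteins to HSP70 and stimulates its ATPase. Cluster 1 was highest (559 and 249 against 764 and 613 CPM) and the Cd3 barcodes second in all 4 libraries. In Cd3 barcodes it stood at 538 and 159 against 694 and 288 CPM, 4.68 to 5.36 times the level of cluster 0. The number 1 libraries of both groups were above the number 2 libraries there, and the SFB difference did not pass (0.49 ± 0.22, edgeR adjusted p = 0.424, 0.37 and 0.60 within the numbers). It passed in no class.

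Dnaja1 (ENSMUSG00000028410, chromosome 4, 40722150 to 40737149, plus strand) encodes another HSP40 co-chaperone of HSC70. Its levels in cluster 1 were 1286 and 1093 against 1564 and 1478 CPM, and in Cd3 barcodes 1291 and 873 against 1247 and 994 CPM. Cluster 1 was at the top in 3 libraries and the Cd3 barcodes in SFB-negative library 1. Its SFB difference in Cd3 barcodes was -0.06 (95% interval -0.57 to 0.46, edgeR adjusted p = 0.978), and in number 2 it was above 0 in CPM and below 0 after TMM scaling. It passed in no class.

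Hspa8 (ENSMUSG00000015656, chromosome 9, 40800984 to 40810087, plus strand), the constitutive HSC70, also peaked in cluster 1, at 4781 and 1572 against 5754 and 2812 CPM. Cluster 0 held 1734 and 466 against 2388 and 668 CPM, and Cd3 barcodes 4384 and 1238 against 4610.0 and 1942 CPM. The gap between numbers exceeded that between groups: number 1 libraries were 2.0 to 3.72 times above number 2 libraries of their own group in clusters 0 to 4. With the block the difference in Cd3 barcodes was 0.24 (95% interval -0.39 to 0.86, edgeR adjusted p = 0.912). Hspa8 passed in no class.

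Hsp90aa1 (ENSMUSG00000021270, chromosome 12, 110690605 to 110702728, minus strand) encodes the inducible HSP90, which finishes the folding of kinases and steroid receptors. In Cd3 barcodes it was at 1239 and 623 against 1452 and 1544 CPM, and in cluster 1 at 2137 and 1282 against 2501 and 3063 CPM. The SFB-positive libraries were above both SFB-negative ones in both classes, and SFB-negative library 2 was lowest. The differences did not pass (0.65 ± 0.28, 95% interval 0.10 to 1.20, edgeR adjusted p = 0.374 in Cd3 barcodes, and 0.64 ± 0.33, 0.668 in cluster 1). Within number 1 they were 0.23 in both classes, and within number 2 they were 1.05 in both.

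Hspb1 (ENSMUSG00000004951, chromosome 5, 135887919 to 135889563, plus strand) encodes HSP27, a small chaperone that holds unfolded protein without ATP. It was counted sparsely, with 22 and 270 UMIs over all table cells of the SFB-negative and 73 and 1586 of the SFB-positive libraries, or 3.47 and 8.37 against 12.2 and 26.6 CPM. Both SFB-positive libraries were above both SFB-negative ones. The difference passed with the block at 2.81-fold (1.49 ± 0.25, edgeR adjusted p = 3.05e-07), and was 1.79 within number 1 and 1.34 within number 2. Sums over the table also change with the mix of clusters, and the part of that mix in this difference was not tested. Hspb1 was the one member that passed in cluster 1 (9.80 and 23.4 against 24.1 and 59.0 CPM, 1.17 ± 0.25, edgeR adjusted p = 0.0203). In cluster 2, on 2 and 23 against 12 and 174 UMIs, it was at 2.21 and 6.77 against 14.7 and 25.6 CPM and passed (1.74 ± 0.41, edgeR adjusted p = 0.00374). With DESeq2 and the block these 3 calls were lost.

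In Cd3 barcodes Hspb1 was at 0, 45, 1 and 134 UMIs, or 0 and 8.18 against 1.83 and 11.6 CPM. The count of 0 in SFB-negative library 1 allows up to 5.81 CPM. The difference with the block was 0.31 (95% interval -0.64 to 1.25, edgeR adjusted p = 0.924). Hspb1 had too few counts to be tested in cluster 4 and in the Cd4 set.

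Hspe1 (ENSMUSG00000073676, plus strand, 55088132 to 55091307) and Hspd1 (ENSMUSG00000025980, minus strand, 55077835 to 55088243) overlap at their 5′ ends on chromosome 1. They encode HSP10 and HSP60, the lid and the barrel that fold proteins imported into mitochondria. Of their table UMIs, cluster 1 held 35.6% to 42.3% for Hspe1 and 38.6% to 44.95% for Hspd1. Hspd1 was highest in cluster 2 in all 4 libraries, at 577 and 591 against 849.9 and 934 CPM, followed by cluster 1 with 536 and 541 against 674 and 827 CPM. Cluster 2 was also 2.14 to 2.49 times above cluster 0 for Hspe1, at 524 and 1038 against 774 and 1081 CPM.

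Hspe1 was lower in number 1 than in number 2 libraries in every class, the reverse of Hspa8. Its SFB difference in Cd3 barcodes was -0.19 (95% interval -0.63 to 0.26, edgeR adjusted p = 0.897) at 389 and 576 against 342 and 601 CPM, and in number 2 it too was above 0 in CPM and below 0 after TMM scaling. Hspd1 in Cd3 barcodes was at 369.7 and 319 against 384 and 486 CPM and differed by 0.22 (-0.22 to 0.66, edgeR adjusted p = 0.877). In cluster 2 it differed by 0.43 (-0.26 to 1.12, edgeR adjusted p = 0.95). Neither gene passed in any class.

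Counted over the list, with the block, 3 of 10 members passed as higher in cluster 0 (Hspa1a, Hspa1b and Hsph1), where 0.236% of all genes tested did. In cluster 1 it was 1 of 10 (Hspb1) against 0.13% of genes, and in cluster 2 it was 3 of 10 (both HSP70 copies and Hspb1) against 0.258%. In cluster 3 it was 3 of 10 (both copies and Hsph1) against 0.375%, and in cluster 4 it was 2 of 9 tested (both copies, opposite ways by number) against 0.282%. The whole table gave 3 of 10 (both copies and Hspb1) against 0.929%. Clusters 0 and 1 as 1 class gave 1 of 10 (Hspb1) against 0.106%. The Cd3 barcodes gave 2 of 10 (both copies) against 0.562%, the Cd4 set 2 of 9 against 0.158% and the Cd8 set 2 of 10 against 0.119%. No member passed as lower in any of these, where 0.449% (the Cd4 set) to 2.68% (the whole table) of all genes did. For a list this short, that is near the share of all genes. In each class more genes passed as lower than as higher. Reads can be split between both copies, which was not measured, so they are taken here as 1 signal. Over these 10 classes the median log2 difference of the members tested ran from 0.28 (the Cd4 set) to 0.88 (clusters 0 and 1 as 1 class), where the median of all genes was between -0.02 and 0.10.

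**Figure D4:**
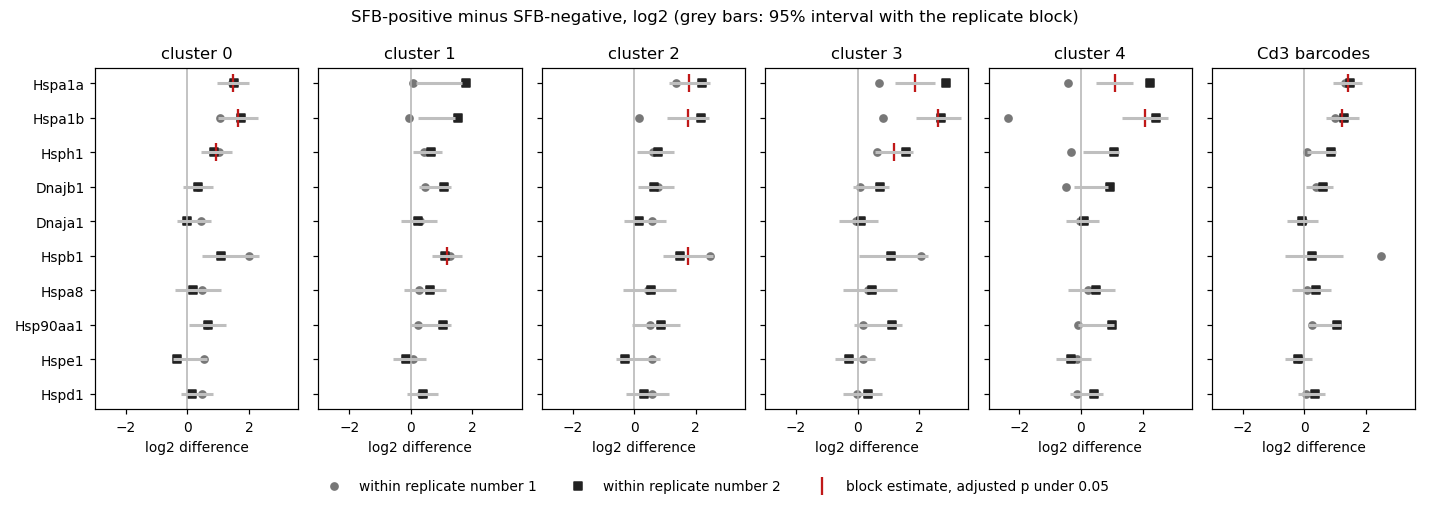
Log2 difference of SFB-positive minus SFB-negative (horizontal axis) for the 10 members in clusters 0 to 4 and the Cd3 barcodes, with the 95% interval of the block test (grey bar), the difference within number 1 (circle) and within number 2 (square). A red tick marks an edgeR adjusted p under 0.05 with the block. Most squares lie to the right of the circles in clusters 1, 3 and 4, and the Hspb1 circle in Cd3 barcodes rests on 0 against 1 UMI.

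In Cd3 barcodes and clusters 0 and 2, 7 other members were higher in the cells that held an HSP70 UMI, at 1000 UMIs per cell. After thinning to 1000 UMIs, Cd3 barcodes with Hspa1a or Hspa1b had 3.02 to 3.96 times the Hsph1 level of those without, over the 4 libraries. The ratio was 1.74 to 4.07 for Dnajb1, 2.11 to 3.08 for Hsp90aa1 and 1.57 to 2.76 for Hspd1. It was 1.64 to 2.15 for Dnaja1, 1.45 to 2.17 for Hspa8 and 1.12 to 1.84 for Hspe1. In cluster 2 the ratios were 2.47 to 4.63 for Hsph1 and 3.20 to 12.4 for Dnajb1. In cluster 0 they were 1.10 to 2.20 for Hsph1 and 1.60 to 3.30 for Dnajb1. These 7 genes were thus above 1 in 4 of 4 libraries in each of these classes, at 1000 UMIs per cell. Hspe1 fell short of that in cluster 1 (0.98 to 1.84), cluster 3 (0.91 to 2.59) and cluster 4 (0.84 to 2.98). At 750 UMIs, Dnajb1 was above 1 in 3 of 4 libraries in cluster 0 (0.97 to 2.87). In cluster 3 Dnajb1 (0 to 4.46) and Hspd1 (0.74 to 2.92) fell short at that depth. In cluster 4 Hsph1, Dnajb1, Hspe1 and Hspd1 did, with lowest ratios of 0, 0.79, 0.42 and 0. The sparse Hspb1 gave ratios from 0 to 27.1 in the 3 libraries with a value in Cd3 barcodes, and 0.61 to 1.78 in cluster 1. The immediate-early genes, which respond within minutes to stimulation and to dissociation, had ratios of 1.17 to 1.70 in Cd3 barcodes and 1.05 to 1.45 in cluster 2. They were above 1 in 4 of 4 libraries in clusters 1 and 3 too, in 3 of 4 in cluster 4 and in 2 of 4 in cluster 0 (0.91 to 1.10). The ratios are a description without a test, since cells of 1 library are not replicates.

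**Figure D5:**
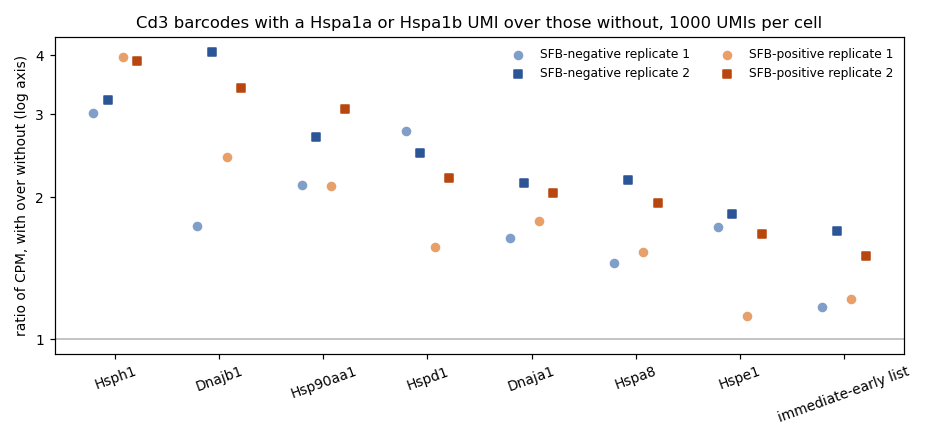
Level in Cd3 barcodes with an Hspa1a or Hspa1b UMI over the level in those without one (log axis), after thinning to 1000 UMIs, 1 symbol per library. Shown are the other members except the sparse Hspb1, and the immediate-early list. In Cd3 barcodes Hsph1 lies between 3.02 and 3.96 and Hspe1 between 1.12 and 1.84.

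The likeness of other genes to HSP70 was measured across classes and libraries. The 26 profiles were clusters 0 to 5 and Cd3 barcodes, each in the libraries with at least 20 cells of the class. Over them, the log2(CPM + 1) of the HSP70 sum was centred within each library. It was correlated with that of 3275 genes with a mean of at least 50 CPM. The points share libraries, depth and batch, so no p is given. Both copies are part of the sum. Hsph1 had r = 0.96, Dnaja1 0.93, Dnajb1 0.92, Hsp90aa1 0.91 and Hspa8 0.88, while Hspd1 (0.80, rank 11) and Hspe1 (0.67, rank 27) came lower, and Hspb1 was under the CPM minimum. Of the fixed lists, Chordc1, an HSP90 co-chaperone, was closest at 0.88 (rank 7, above Hspa8). Jun, of the immediate-early and dissociation list, had 0.87 (rank 9, above Hspd1 and Hspe1) and stood 5.11 to 14.8 times higher in cluster 1 than in cluster 0. Outside the lists the 5 closest were Atf4 (0.75) and Ppp1r15a (0.70), both of the integrated stress response, Traf4 (0.72, a signalling adaptor), Mat2a (0.71, S-adenosylmethionine synthesis) and Zfand5 (0.70, a zinc-finger gene).

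Few genes passed in the rest of the chaperone network, and few did among all genes. Over clusters 0 to 4, the table and the Cd3 barcodes, 0.13% to 0.929% of all genes tested passed as higher. As lower, 0.851% to 2.68% did. Lists this short cannot be told apart from those shares. Of 18 further inducible cytosolic chaperones and HSF1 targets, 12 to 14 were tested per class. Hspa4l, an HSP110 relative of Hsph1, passed with the block in cluster 1 (1.27 ± 0.28, edgeR adjusted p = 0.0264) at TMM-scaled levels of 22.4 and 18.8 against 30.1 and 61.2 CPM, by 0.42 and 1.69 within the numbers. It also passed in the whole table (0.81 ± 0.22, edgeR adjusted p = 0.0131). None of this list passed in clusters 0, 2, 3 and 4 or in the Cd3 barcodes. The list's median in Cd3 barcodes was 0.18 on the log2 scale, where that of all genes was -0.0045.

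Among 8 regulators of HSF1, 16 HSP90 partners, 8 TRiC chaperonin genes (7 of them in the files), 8 mitochondrial chaperones and proteases and 14 chaperones of the endoplasmic reticulum, no gene passed in either direction in these 7 classes. Their medians in Cd3 barcodes were 0.00, 0.05, 0.02, 0.00 and -0.07. Of 20 immediate-early genes, 19 or 20 were tested per class, and Jun, a subunit of AP-1, passed in cluster 0 (0.83 ± 0.25, edgeR adjusted p = 0.0453) and in the table (0.97 ± 0.28, edgeR adjusted p = 0.0183). Its TMM-scaled levels in cluster 0 were 57.2 and 43.7 against 116 and 69.6 CPM.

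The summed immediate-early genes followed the class order of HSP70 in part and the replicate number more than the group. They stood at 24992 and 8999 against 24202 and 13413 CPM in cluster 1, and at 17368 and 5138 against 15811 and 6104 CPM in cluster 0. In Cd3 barcodes they were at 20633 and 6473 in SFB-negative and 19661 and 8300 CPM in SFB-positive libraries, so the groups overlapped where those of Hspa1a did not. Their part in the HSP70 differences was not tested.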

How the data were processed

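The authors deposited UMI counts (whole numbers, no normalization) for 4 10x libraries and a table with library codes (other), clusters, counts per cell, percent mitochondrial UMIs and layout coordinates (a score without unit). Per the submitters' processing notes, Cell Ranger 5.0.1 and mm10 were used, while the file headers name 6.0.0 and 7.0.0. The sources used here do not give the intron setting, the cell filters or how clusters were made. Counts were summed per library and class (at least 20 cells in each library) and tested with edgeR 4.0.16 (R 4.3.3; quasi-likelihood, TMM, filterByExpr, Benjamini-Hochberg over all genes of the class, limit 0.05). Replicate numbers pair libraries: number 1 minus number 2 correlated between groups at 0.50 to 0.89 over genes in each class, and file headers differ by number. Alternatives were DESeq2 1.42.0, RLE scaling, no filter, left-out libraries, stricter Cd3 barcodes and other depths. The tests were tried on simulated counts. Doublets were not removed beyond what the authors did. Named genes were all 10 members, list genes past the limit, and the 5 genes outside the lists plus 1 list gene most like HSP70. The members and lists were chosen with earlier results of these data known.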

Additional observations from a re-analysis of the deposited data

Results flagged for a closer look

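After TMM scaling, Dnaja1, an HSP40 co-chaperone, went one way in 2 B-cell clusters and the other way in Cd3 barcodes within both replicate numbers. In CPM this did not hold in number 2, where the Dnaja1 level in Cd3 barcodes was 873 in the SFB-negative and 994 in the SFB-positive library. Its TMM-scaled log2 difference of SFB-positive minus SFB-negative was 0.29 and 0.23 in cluster 1 and 0.57 and 0.15 in cluster 2, against -0.045 and -0.069 in Cd3 barcodes. The difference between these classes was not tested, and the Dnaja1 difference passed in none of them.

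Barcodes outside the table without a Cd3 UMI, which enter no comparison, carried Hsp90aa1 and Hspd1 at higher levels in both SFB-positive than in both SFB-negative libraries. Only these members did so. The share of all genes that did was not counted, so no result about these members is drawn from it. Hspa1a was lower with SFB in number 1, at 303 of 473271 UMIs against 472 of 344283. It was higher with SFB in number 2, at 3999 of 12428977 UMIs against 1475 of 9519767. Hsp90aa1 was at 1098 and 645 against 1289 and 1654 CPM, and Hspd1 at 369 and 343 against 566 and 653 CPM. These were 243, 3786, 294 and 1558 barcodes, of which 37.9% to 56.8% had at least 10% mitochondrial UMIs.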

How the results depend on the processing

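Without the replicate block, no member passed under any alternative and all genes called numbered 0 to 7 per class. With the block (edgeR), 3 members passed as higher in clusters 0, 2 and 3 and the table, 2 in cluster 4, the Cd3 barcodes and the Cd4 and Cd8 sets, and 1 in cluster 1 and in clusters 0 and 1 together. RLE scaling or leaving out the cell with most UMIs of the members in each library, both with the block, left 1 in the table and the same counts in clusters 0 to 4 and the Cd3 barcodes. DESeq2 with the block left 1 in clusters 0 and 2 and the Cd3 barcodes and 0 in clusters 1, 3 and 4 and the table. With both copies summed and the block, 2 passed in clusters 0, 2 and 3 and the table and 1 in cluster 1 and the Cd3 barcodes. Each stricter set of Cd3 barcodes (2 Cd3 UMIs, under 10% mitochondrial UMIs, no B-cell UMI) kept 2 with the block. Genes called with the block ranged from 5 to 229 (cluster 0), 7 to 188 (cluster 1), 5 to 105 (cluster 2), 5 to 141 (cluster 3), 4 to 134 (cluster 4), 21 to 443 (table) and 8 to 250 (Cd3 barcodes) over its settings. The combinations of the block with another setting were chosen after seeing the data. The cause of these changes was not tested.

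In Cd3 barcodes 2 uncalled values changed sign, Dnaja1 to 0.0026 with at least 2 Cd3 UMIs and Hspd1 to -0.0047 without B-cell UMIs. Leaving out 1 library moved the unblocked log2 difference of Hspa1a from -0.19 to 3.18 in cluster 0, -0.19 to 2.19 in cluster 1 and -0.094 to 2.06 in cluster 4. For Hspa1b it ran from -0.91 to 2.16 in cluster 1, -1.05 to 3.24 in cluster 2, -0.99 to 4.36 in cluster 3, -0.73 to 2.47 in the table and -1.0 to 3.30 in Cd3 barcodes. In Cd3 barcodes Dnaja1 ran from -0.34 to 0.24, Hspb1 from -0.21 to 0.88, Hspe1 from -0.53 to 0.20, Dnajb1 from -0.48 to 1.54, Hspa8 from -0.74 to 1.31 and Hsph1 from -0.040 to 1.0. Without thinning, the gap in cells with an HSP70 UMI was 7.07 points in cluster 0, 24.6 in cluster 2, 17.1 in cluster 3, 13.3 in cluster 4 and 19.5 in Cd3 barcodes. At 750 UMIs it was 16.8 in cluster 2 and 14.0 in Cd3 barcodes. Number 1 libraries had a small part of the depth of number 2, and differences within number 1 are the less precise where its counts are lower. For Hspa1a they were lower in clusters 2, 3 and 4 and the Cd3 barcodes. In SFB-negative libraries 1 and 2 its counts were 216 and 162 UMIs in cluster 0 and 4077 and 4034 in cluster 1. In SFB-positive libraries they were 417 and 637, and 4303 and 34950. With 2 libraries a group, the spread between libraries of 1 number cannot be judged.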
